A study of Mus musculus with 48 samples.

Results

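Antigen presentation was followed through 10 mouse genes of the classical class I and class II pathways of the major histocompatibility complex (MHC). They were picked by symbol for their known roles, and earlier results of these data were known when they were chosen. All 10 were found among the 48709 genes of the count tables. The set holds the class I heavy chains H2-K1 and H2-D1, their light chain B2m, the peptide transporter subunit Tap1, the loading factor Tapbp, the inducible proteasome subunits Psmb8 and Psmb9, and the class II genes Cd74, H2-Aa and H2-Ab1. RNA-seq counts were available for 46 mice in 8 groups, all labelled C57BL/6J and described by the study as male. The Fmn2 experiment compared mice lacking Formin 2 in every cell (Fmn2-/-) with wild type mice (Fmn2+/+), at 3 months (5 mice of each genotype) and at 8 months (5 Fmn2-/- and 3 Fmn2+/+ mice), in dentate gyrus. A cross of the Fmn2 knockout with APPPS1-21 mice, which carry mutant human amyloid precursor protein and presenilin transgenes under the neuronal Thy1 promoter, gave 7 mice labelled Fmn2-/-_APP and 9 labelled Fmn2+/+ APP at 3 months. A further set of 6 transgenic (APP) and 6 wild type mice, labelled 4 months, had PFC in their titles and dentate gyrus as their source. Both groups of the cross carried the transgenes according to their labels, so neither was a control without amyloid.

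MHC class I molecules stand on nearly all nucleated cells and show peptides made inside the cell to CD8 T cells. The proteasome cuts the peptides, the TAP transporter carries them into the endoplasmic reticulum, and tapasin, the product of Tapbp, holds the empty heavy chain and B2m close to the transporter until a peptide binds. Class II molecules show peptides taken up from outside to CD4 T cells and are made mainly by professional antigen-presenting cells. In the brain these are mostly macrophages at the borders and activated microglia, whereas neurons make little class I and no class II under resting conditions. Interferons switch on both pathways, class I through the factor NLRC5 and class II through CIITA.

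8 of the 10 genes lie in the MHC region of chromosome 17 (build mm10). From centromere to telomere these were Tapbp (ENSMUSG00000024308, 33915899 to 33929292, plus strand), H2-K1 (ENSMUSG00000061232, 33996017 to 34000347, minus), Psmb9 (ENSMUSG00000096727, 34181987 to 34187764, minus), Tap1 (ENSMUSG00000037321, 34187553 to 34197225, plus), Psmb8 (ENSMUSG00000024338, 34197721 to 34201454, plus), H2-Ab1 (ENSMUSG00000073421, 34257689 to 34269419, plus), H2-Aa (ENSMUSG00000036594, 34282744 to 34287823, minus) and H2-D1 (ENSMUSG00000073411, 35262730 to 35267499, plus). B2m (ENSMUSG00000060802) lies on chromosome 2 from 122147686 to 122153083 on the plus strand and Cd74 (ENSMUSG00000024610) outside chromosome 17 as well. Psmb9 and Tap1 point away from each other and overlap at their 5' ends, where a read can be ambiguous between them.

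The sequence before the start is shown for 1 heavy chain, the shared light chain and 1 class II chain, which belong to both arms of the pathway. Only windows without an annotated transcript were printed, and the letters they share were not used to choose them. Each run is genomic sequence upstream of the RefSeq gene start (GRCm38.p6), 5' to 3' on the strand of the gene, for H2-K1 chr17:34000348-34000597, for B2m chr2:122147437-122147685 and for H2-Aa chr17:34287824-34288073. H2-K1 has 2 RefSeq starts, and the sequence before 1 of them is shown. In H2-K1 the capitals mark GGGANTCCC, the kappaB site of the class I enhancer, then the reverse of GAANNGAAA, a form of the interferon response element, then TGACG and ATTGG. In B2m they mark GAAANNGAA, a form of the same element with its GAA repeats set 1 base further apart, and then TGACG and ATTGG. In H2-Aa they mark TGACG and ATTGG and the CGTCA that overlaps TGACG on the other strand. TGACG is the core of the site bound by CREB family factors (site alpha in class I, X2 in class II), and ATTGG is the Y box CCAAT read on the other strand.
H2-K1: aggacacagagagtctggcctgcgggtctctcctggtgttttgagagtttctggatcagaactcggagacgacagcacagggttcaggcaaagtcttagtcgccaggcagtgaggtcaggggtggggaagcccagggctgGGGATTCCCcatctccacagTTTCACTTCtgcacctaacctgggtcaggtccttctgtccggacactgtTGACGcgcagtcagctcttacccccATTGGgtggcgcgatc
B2m: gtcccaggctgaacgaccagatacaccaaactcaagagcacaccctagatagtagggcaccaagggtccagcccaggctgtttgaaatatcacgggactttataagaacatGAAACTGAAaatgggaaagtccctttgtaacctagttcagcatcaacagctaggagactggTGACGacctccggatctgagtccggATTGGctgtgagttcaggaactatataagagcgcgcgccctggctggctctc
H2-Aa: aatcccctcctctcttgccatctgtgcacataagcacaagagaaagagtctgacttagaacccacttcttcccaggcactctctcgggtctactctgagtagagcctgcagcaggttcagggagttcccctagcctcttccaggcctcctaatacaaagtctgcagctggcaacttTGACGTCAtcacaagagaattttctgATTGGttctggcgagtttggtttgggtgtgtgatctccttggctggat

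TGACG was followed by ATTGG at a start-to-start distance of 25 bases in H2-K1 and B2m and of 26 bases in H2-Aa. A pair spaced 24 to 27 bases apart was found in 4 of the 8 members with a RefSeq promoter (H2-D1 also, at 25 bases) and in 71 of 32851 promoter windows of 250 bases over all genes (0.216%). This spacing was written down with the members' sequences in view. Searched on both strands, GGGANTCCC was in 2 of the 8 members, H2-K1 and H2-D1, and in 0.636% of all windows, and GAANNGAAA was in the same 2 members and 6.31% of windows. GAAANNGAA, searched after the B2m sequence had been seen, was in 1 of 8 members (B2m) and 7.13% of windows. Single short letters were common everywhere, with TGACG in 6 of 8 members and 17.8% of windows, CCAAT in 7 of 8 and 33.8%, and TTCNNNGAA, the STAT palindrome, in 1 of 8 (Psmb8) and 7.02%. A match is a run of letters in this window and not a measured binding site. H2-Ab1 and Cd74 were not searched.

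Some checks bear on every value below. Depth ran from 6818809 to 43921030 counted reads per mouse, and the 8-month mice were shallow except Fmn2+/+ replicate 1, which held the highest total. Fmn2 was at 93.2 to 108.9 counts per 1000000 reads (CPM, scaled by TMM over all mice) in Fmn2+/+ and 22.2 to 27.4 CPM in Fmn2-/- mice of 3 months, and at 77.2 to 107.1 against 21.6 to 28.2 CPM at 8 months. In the cross it went against the labels, with 83.3 to 101.8 CPM in the mice labelled Fmn2-/-_APP and 18.9 to 23.4 CPM in those labelled Fmn2+/+ APP, so directions in the cross are given for the labelled groups only. Thy1, whose expression cassette carries the transgenes and whose counts were higher in most transgenic mice, was no higher than in the mice labelled without a transgene (879.9 CPM at most) in 3 of the 16 cross mice, labelled Fmn2-/-_APP replicates 1 and 7 and labelled Fmn2+/+ APP replicate 4. The PFC-titled mice had 11.4 to 20.4 CPM of Prox1, the granule cell factor of the dentate gyrus, against 181 to 371 CPM in all other mice, and 132 to 175 CPM of the cortical factor Tbr1 against 25.03 to 84.0, so the title and not the source matched their markers. Ttr, made by choroid plexus, stood at 4002 CPM in Fmn2-/- replicate 4 of 3 months and at 8809 and 5824 CPM in labelled Fmn2+/+ APP replicates 4 and 5. Fmn2-/- replicates 2 and 3 of 8 months differed by 1.62 times the sampling variance, less than any other pair of mice compared within a group. Runs of the same mouse differed by more, at 1.72 times for labelled Fmn2+/+ APP replicate 7 and 2.15 times for labelled Fmn2-/-_APP replicate 7. Whether these Fmn2-/- replicates are separate mice was not tested. They were kept apart, so the 8-month and interaction results count each as a mouse of its own.

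B2m was by far the most abundant of the 10 mRNAs. Levels across genes are given as reads per kilobase of exon, scaled like CPM (RPKM), in which B2m ran from 65.96 to 213.6 over the 46 mice with a median of 115.6. H2-D1 followed with a median of 11.9 RPKM, H2-K1 with 7.18 and Tapbp with 5.23. Cd74, the invariant chain that escorts class II molecules, had a median of 3.61 RPKM. The remaining medians were below 1, at 0.765 for H2-Ab1, 0.685 for H2-Aa, 0.638 for Psmb8, 0.511 for Tap1 and 0.424 for Psmb9. Class II differed most from mouse to mouse, with the highest level 103.9 times the lowest for Cd74, 48.8 times for H2-Aa and 30.6 times for H2-Ab1, against 2.36 times for Tapbp and 3.24 times for B2m. The lowest Cd74 value rested on 3 reads, in Fmn2+/+ replicate 2 of 8 months, so part of that span is counting error. All 10 genes passed the filter on low counts in every comparison. In whole tissue, more cells of a type and more mRNA per cell cannot be told apart, for these genes and for the markers given beside them.

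**Figure D1:**
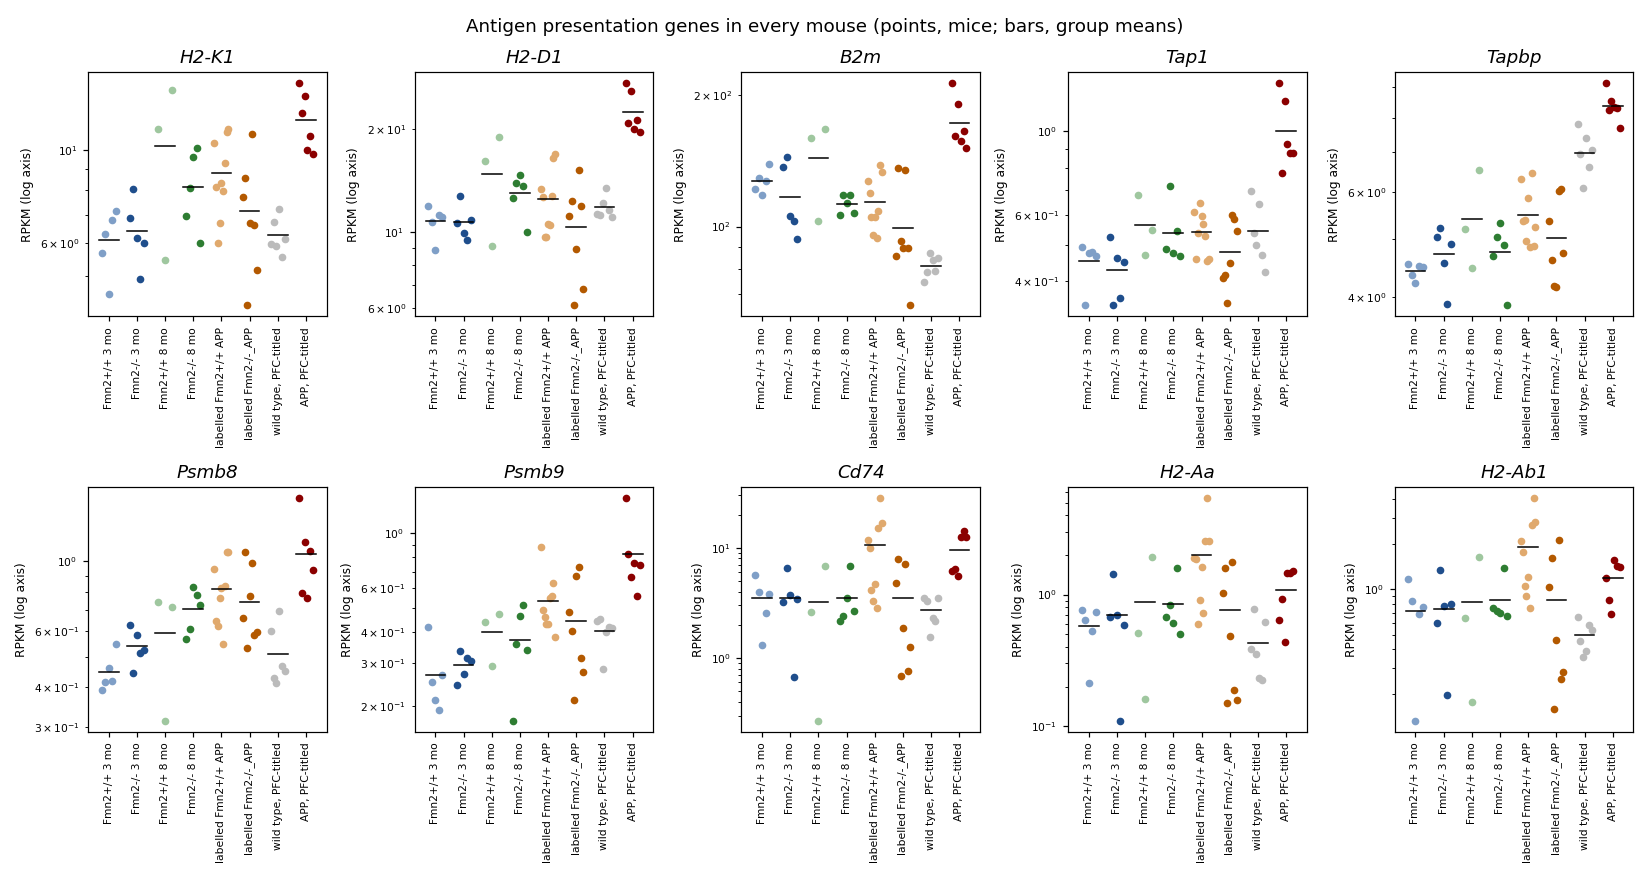
RPKM on a log axis for the 10 genes in each of the 46 mice (points), with group means as bars, for the 8 groups along the horizontal axis. Means of 7 genes were highest in the PFC-titled APP mice and means of the 3 class II genes in the mice labelled Fmn2+/+ APP.

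Ordered by group mean, 7 of the genes (H2-K1, H2-D1, B2m, Tap1, Tapbp, Psmb8 and Psmb9) were highest in the PFC-titled APP mice, and Cd74, H2-Aa and H2-Ab1 in the mice labelled Fmn2+/+ APP. Of the 70 pairs of groups next to each other in these orders, 68 had overlapping ranges. The exceptions were the top steps of H2-D1, where the APP mice averaged 22.4 ± 3.23 RPKM (SD, n = 6), and of Tap1, at 1.001 ± 0.222 RPKM (SD, n = 6). The 8 groups came from 3 experiments that differ in lane and tissue, so these orders were not tested.

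The comparison of APP with wild type PFC-titled mice asked how the tissue responds to the amyloid transgenes. All 10 genes were higher in APP mice, and 9 of 10 passed the test, which required an adjusted p under 0.05 in edgeR's quasi-likelihood test and a log2 fold change of at least 0.5. Of the 16733 genes tested, 2.34% were called and 2.19% were called higher. The median log2 fold change was 1.05 over the 10 genes and -0.000415 over all genes tested. Groups did not overlap for 8 of the 10 genes, against 2.50% of all genes that were higher without overlap. DESeq2 also called 9 of the 10. All 6 APP libraries were run on lane 7 and all 6 wild type libraries on lane 5, so lane and genotype cannot be told apart here.

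B2m, the light chain that every class I molecule needs, rose 2.15-fold (log2 1.10, SE 0.077, adjusted p = 2.52e-08). Its level was 184, 139, 164, 135, 143 and 130 CPM in APP replicates 1 to 6 and 64.3, 67.8, 74.6, 72.1, 68.2 and 73.0 CPM in the wild type mice. The lowest APP mouse was thus well above the highest wild type mouse. H2-D1 stood at 70.3, 53.6, 66.4, 51.6, 54.6 and 50.6 CPM in APP mice and at 29.1, 28.8, 31.3, 34.7, 30.0 and 28.5 CPM in wild type mice, again without overlap (log2 0.94, SE 0.085, adjusted p = 7.95e-07). H2-K1 stood at 42.3, 35.8, 39.4, 29.4, 31.6 and 28.6 CPM against 17.5, 19.8, 17.3, 21.2, 16.3 and 18.02 CPM (log2 0.92, SE 0.099, adjusted p = 6.63e-06). The 3 genes of the class I molecule therefore rose by similar factors, and for each of them APP replicates 1 and 3 were the highest. H2 class I genes are close copies of each other, and reads that fit several of them could be lost or misplaced in counting, so the share of each heavy chain is less certain than that of B2m.

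Among the genes that feed peptides to class I, Tap1, a subunit of the peptide transporter, rose 1.85-fold (log2 0.89, SE 0.16, adjusted p = 0.00164). APP mice had 7.36, 4.25, 6.61, 5.08, 4.79 and 4.79 CPM and wild type mice 3.81, 2.94, 2.74, 3.52, 2.57 and 2.32 CPM. The groups did not overlap. Tapbp was higher by only 0.27 on the log2 scale (SE 0.063, adjusted p = 0.0162), under the required fold (a p of this size at any fold was reached by 3.81% of all genes), and its groups overlapped, with 27.9 to 33.2 CPM in APP and 22.1 to 28.3 CPM in wild type mice. None of the 11 further genes of peptide supply and loading was called, although 4 had an unadjusted p under 0.05 and their median was 0.04. Those with an adjusted p under 0.05 and a smaller fold were Psme1, a proteasome activator (log2 0.41, adjusted p = 0.000309), Erap1, which trims peptides (0.39, adjusted p = 0.0060), and Tap2, the partner of Tap1 (0.38, adjusted p = 0.0457). The general chaperones of the list, Calr, Canx, Pdia3 and Hspa5, lay between -0.13 and 0.04.

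Psmb8 and Psmb9 replace the constitutive subunits Psmb5 and Psmb6 when the immunoproteasome is assembled. Psmb8 rose 2.09-fold (log2 1.06, SE 0.19, adjusted p = 0.00193), with 5.35, 2.69, 3.90, 2.58, 3.64 and 3.18 CPM in APP and 2.04, 1.45, 1.398, 2.35, 1.58 and 1.52 CPM in wild type mice. Psmb9 rose 2.04-fold (log2 1.03, SE 0.20, adjusted p = 0.00461), with 5.07, 3.02, 2.44, 2.79, 2.04 and 2.72 CPM against 1.62, 1.65, 1.03, 1.47, 1.53 and 1.52 CPM. Neither gene overlapped between the groups, and replicate 1 was the highest APP mouse for both. The constitutive subunits Psmb5, Psmb6 and Psmb7 had log2 fold changes of -0.0013, -0.02 and 0.05, none of them called and none with an unadjusted p under 0.05.

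Psmb8 and Psmb9 were therefore also set against their constitutive counterparts within each mouse, which removes library size. Psmb8 was 2.402% ± 0.617 of Psmb5 per length in wild type and 4.89% ± 1.10 in APP mice (SD, n = 6 and 6). The mean log2 ratio differed by 1.04 without overlap (two-sided exact permutation test, p = 0.00216, the smallest that 6 against 6 allows, adjusted p = 0.0130 over 12 ratio tests). Psmb9 was 1.17% ± 0.168 of Psmb6 in wild type and 2.49% ± 0.965 in APP mice, a difference of 1.03 with the same exact p and adjusted p. By this measure both inducible subunits remained a few percent of the constitutive ones in either group. The share depends on the merged exon lengths used (3381 bases for Psmb8 and 3660 for Psmb9), which can exceed the length of the mRNA. The difference between groups does not depend on them. Psmb10, the third inducible subunit, was not a minor form, at 118% ± 11.2 of Psmb7 in wild type and 109% ± 8.31 in APP mice (difference -0.12, exact permutation p = 0.143, adjusted p = 0.429). In the Fmn2 experiment and the cross, none of the 9 ratio tests had an adjusted p below 0.14. Of these, Psmb10 relative to Psmb7 was 72.9% ± 7.21 in Fmn2+/+ and 56.4% ± 4.27 in Fmn2-/- mice of 8 months without overlap, which gave the smallest exact permutation p that 3 against 5 mice allow, 0.0357 (adjusted p = 0.143).

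**Figure D2:**
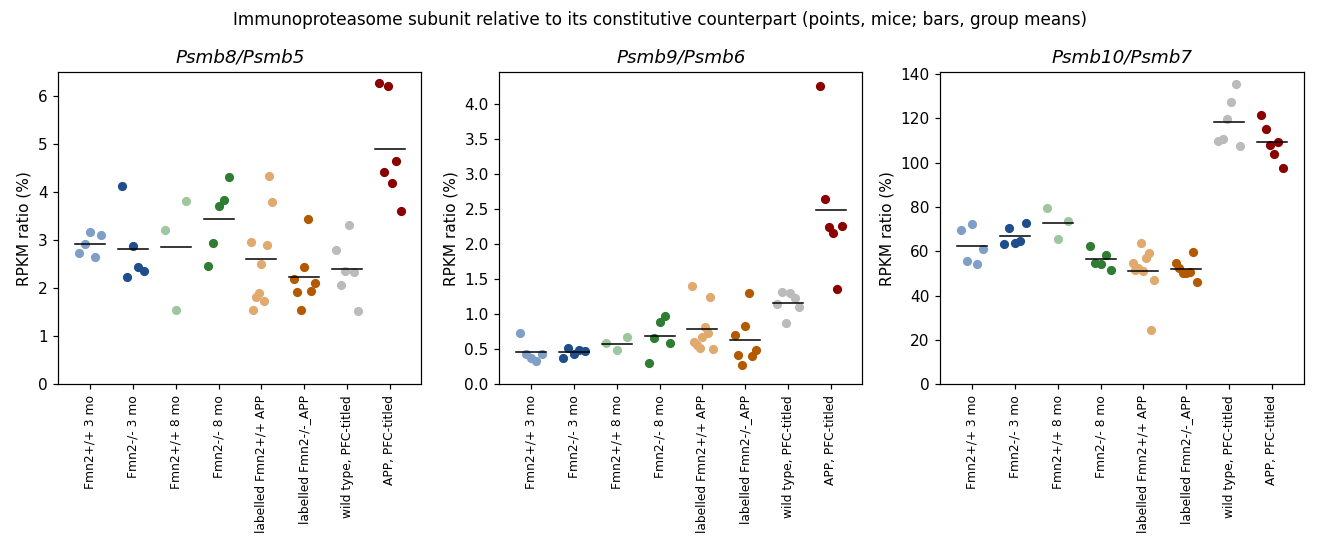
Level of each inducible proteasome subunit as a percentage of its constitutive counterpart (RPKM ratio, axis from 0) in every mouse (points), with group means as bars, for the 8 groups. Psmb8 and Psmb9 were highest in the PFC-titled APP mice, at 4.89% and 2.49% on average, while Psmb10 was at 109% of Psmb7 in the same mice and at 118% in their wild type controls.

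The class II genes also rose. Cd74 was 3.51-fold higher (log2 1.81, SE 0.25, adjusted p = 0.000133), with 10.4, 10.8, 9.24, 21.1, 23.8 and 21.1 CPM in APP and 5.90, 5.47, 2.61, 3.87, 3.65 and 5.84 CPM in wild type mice. H2-Ab1, the beta chain of the class II molecule I-A, had 3.06, 2.19, 1.76, 4.05, 3.67 and 3.61 CPM against 1.67, 1.17, 0.912, 0.997, 1.49 and 1.38 CPM (log2 1.26, SE 0.21, adjusted p = 0.000931). Neither gene overlapped between the groups, and APP replicates 4 to 6 were higher than replicates 1 to 3 for both. This is not the order seen for B2m and the heavy chains. H2-Aa, the alpha chain of I-A, had 2.45, 3.52, 1.64, 5.57, 5.56 and 5.78 CPM against 1.46, 2.94, 1.34, 0.880, 0.857 and 2.36 CPM (log2 1.29, SE 0.32, adjusted p = 0.0295). Its groups overlapped, since wild type replicate 2 exceeded APP replicates 1 and 3. The call for H2-Aa was lost without any 1 of 7 mice, with adjusted p = 0.0737, 0.0737 and 0.0727 without APP replicates 4, 5 and 6, and 0.0633, 0.0575, 0.0664 and 0.0781 without wild type replicates 1, 3, 4 and 5.

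**Figure D3:**
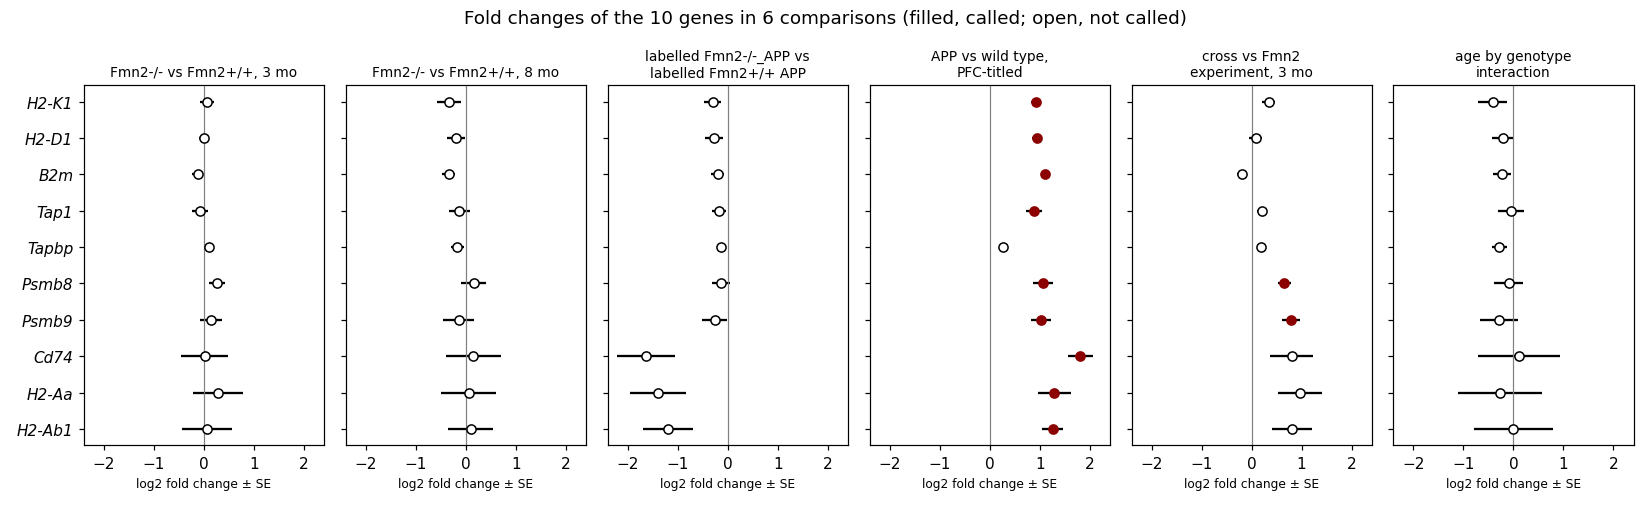
Log2 fold change with its standard error for the 10 genes in the 6 comparisons, by edgeR; filled points were called, open points were not. In the PFC-titled mice 9 of 10 genes were called higher, in the comparison of the cross with the Fmn2 experiment 2 of 10, and in the other comparisons 0 of 10.

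Other genes of the same pathways, fixed as lists by known role, were counted in the PFC-titled mice. Of 13 tested class I genes beside the members, 3 were called and all were higher, H2-Q7 (log2 2.25), H2-Q6 (2.12) and H2-Q4 (0.85). H2-Q6 and H2-Q7 are near-identical copies and may share reads, and H2-Q7 and, below, H2-Oa are named after their values were seen although their mean level was under the 1 CPM asked of a named gene. Among the 10 tested class II partners 5 were called, all higher. These were H2-Oa (2.21) and H2-Ob (1.61), which form the DO molecule that restrains peptide exchange, H2-DMb1 (1.16), a chain of the peptide exchange factor DM, the cathepsin Ctss (1.54), which removes the invariant chain, and Ifi30 (0.68), which reduces disulfide bonds of antigens. H2-Eb1, the beta chain of the other class II molecule, was higher by 0.67 and not called (adjusted p = 0.110). Of 10 transcription factors 3 rose, among them Irf8 (1.45) and Nlrc5 (1.42). Ciita, the class II activator, was lower by 0.28 and not called (adjusted p = 0.573). Interferon targets were called in 12 of 14 cases, led by Oasl2 (1.54), Usp18 (1.53), Bst2 (1.49) and Ifit1 (1.32), whereas 0 of 6 interferon receptors and signalling genes passed edgeR's test and 2 of the 6 had an unadjusted p under 0.05. Ifng, which encodes interferon gamma, was at 0 in all 6 APP libraries and likewise in every mouse of the Fmn2 experiment. Co-stimulatory genes were called in 2 of 4 cases, Cd86 (1.08) and Cd274 (0.71).

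Markers of microglia rose in the same mice. Of 10 general microglia genes 9 were called, among them C1qa (log2 1.33), C1qb (1.28) and C1qc (1.24), with a median of 0.76, and their summed level was 631 to 807 CPM in APP against 373 to 398 CPM in wild type mice. Of 10 genes of plaque-associated microglia 9 were called, with a median of 2.53, led by Cst7 (7.81), Clec7a (6.61), Itgax (5.11) and Ccl6 (3.37), and their sum was 290 to 358 against 97.9 to 115 CPM. Border macrophage markers were called in 0 of 5 cases by edgeR, with an unadjusted p under 0.05 for 2, and summed to 8.44 to 10.98 against 6.44 to 10.03 CPM. T cell markers summed to 14.2 to 21.3 against 13.8 to 19.6 CPM, and 0 of the 2 tested, Cd4 and Trbc2, was called or had an unadjusted p under 0.05. Of the 6 T cell genes 4 averaged under 10 counts in both groups. The sum was 0.504 to 4.10 CPM in Fmn2+/+ mice of 3 months, so its level also differed between experiments and is not a measure of T cells alone. Dendritic cell, B cell, endothelial, choroid plexus, meningeal and blood markers were called in 0 cases, with an unadjusted p under 0.05 for 0 of 3, 1 of 1, 0 of 5, 1 of 2, 2 of 4 and 3 of 4 genes. The part of these cells in the rise of the 10 genes was not tested.

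**Figure D4:**
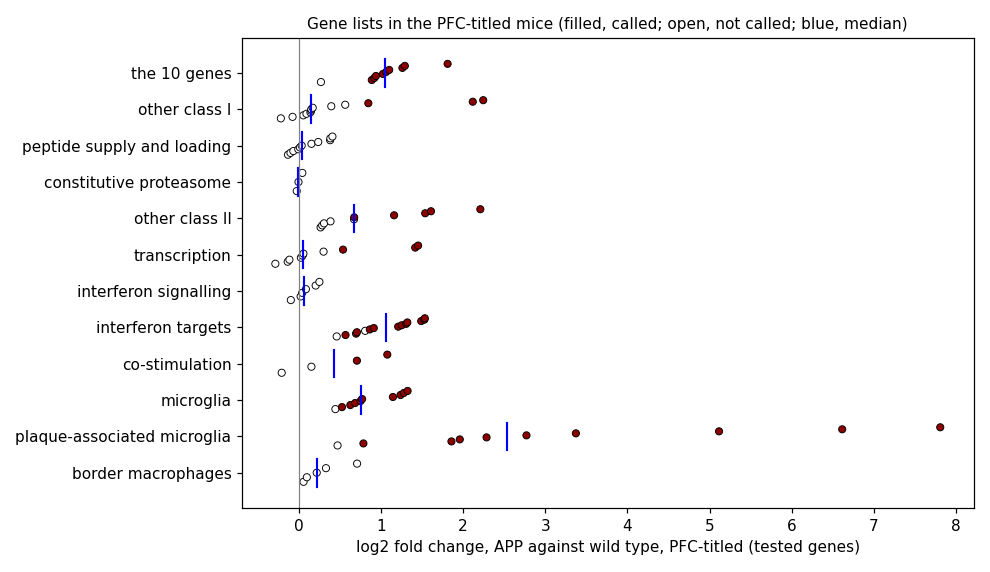
Log2 fold change of APP against wild type PFC-titled mice for each tested gene of 12 lists; filled points were called, open points were not, and the vertical bars are list medians. The 10 genes (median 1.05), interferon targets (1.06), microglia genes (0.76) and plaque-associated genes (2.53) lay to the right of 0, while the constitutive proteasome and interferon signalling lists lay near it.

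In the cross, the comparison of the labelled genotypes asked whether the loss of Fmn2 changes expression in mice with amyloid. All 10 genes were lower in the mice labelled Fmn2-/-_APP, which are those with the higher Fmn2 counts, but 0 of 10 were called by edgeR or by DESeq2. An unadjusted p under 0.05 was reached by 3 of 10, the class II genes. Over all 16656 genes, 0.774% were called and 0.336% were called lower. The 10 genes had a median log2 fold change of -0.27 against 0.0057 over all genes. Class II genes had the largest differences, with -1.64 for Cd74 (SE 0.58, adjusted p = 0.165), -1.40 for H2-Aa (SE 0.56, adjusted p = 0.212) and -1.20 for H2-Ab1 (SE 0.50, adjusted p = 0.234). The class I and processing genes lay between -0.30 (H2-K1, SE 0.17) and -0.13 (Tapbp, SE 0.097).

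Cd74 varied widely within both groups of the cross. It stood at 8.02, 13.2, 1.14, 3.12, 2.10, 11.9 and 1.28 CPM in labelled Fmn2-/-_APP replicates 1 to 7. In labelled Fmn2+/+ APP replicates 1 to 9 it stood at 19.6, 5.54, 16.7, 7.80, 4.80, 6.89, 25.1, 47.3 and 27.995 CPM. The groups overlapped, and the highest mice were replicates 7, 8 and 9 of the mice labelled Fmn2+/+ APP, which were run on lane 7 with 1 mouse of the other label. Replicate 7 of each label was also run on lane 4, and its runs were summed and are counted here with lane 7. Within lanes the difference in mean log2 CPM of Cd74 was -1.15 on lane 5 (3 against 3 mice), -0.49 on lane 6 (3 against 3) and -4.20 on lane 7. Lane 7 held a single mouse labelled Fmn2-/-_APP, replicate 7. Its Thy1 (842 CPM) was no higher than in mice labelled without a transgene, so the values of lane 7 may not compare 2 transgenic groups. The members were lower in 10, 8 and 8 of 10 cases on the respective lanes, with medians of -0.39, -0.10 and -0.58. With lane as a covariate the fold changes were -1.03 for Cd74 (adjusted p = 0.407), -0.98 for H2-Aa (adjusted p = 0.433) and -0.86 for H2-Ab1 (adjusted p = 0.447). Without the 3 mice with low Thy1 Cd74 was at -1.63 (adjusted p = 0.335), and again 0 of the 10 genes were called.

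For the class II genes, more mice of 1 label than of the other exceeded the mice without a transgene. The highest Cd74 level among the 24 mice labelled without a transgene was 11.4 CPM, and it was exceeded by 5 of 9 mice labelled Fmn2+/+ APP, 2 of 7 labelled Fmn2-/-_APP and 3 of 6 PFC-titled APP mice. For H2-Ab1 the numbers were 5 of 9, 1 of 7 and 0 of 6 (above 4.26 CPM), and for H2-Aa 3 of 9, 0 of 7 and 0 of 6 (above 7.36 CPM). For H2-D1 and Tap1, 0 of 9, 0 of 7 and 6 of 6 mice were above the highest level without a transgene. These levels, 49.0 CPM and 3.92 CPM, came from mice of 8 months. The other genes did not all follow. H2-K1, B2m and Tapbp also had 0 of 9 and 0 of 7 mice above their highest level without a transgene. In the PFC-titled APP mice the numbers were 1, 2 and 5 of 6. For Psmb8 the numbers were 4 of 9, 2 of 7 and 4 of 6, and for Psmb9 4 of 9, 2 of 7 and 6 of 6. Cst7, a marker of plaque-associated microglia, exceeded the highest level without a transgene (0.310 CPM) in 6 of 9, 3 of 7 and 6 of 6 mice, reaching 12.4 CPM in the cross and 30.1 to 41.3 CPM in the PFC-titled mice. These counts describe the mice and were not tested.

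**Figure D5:**
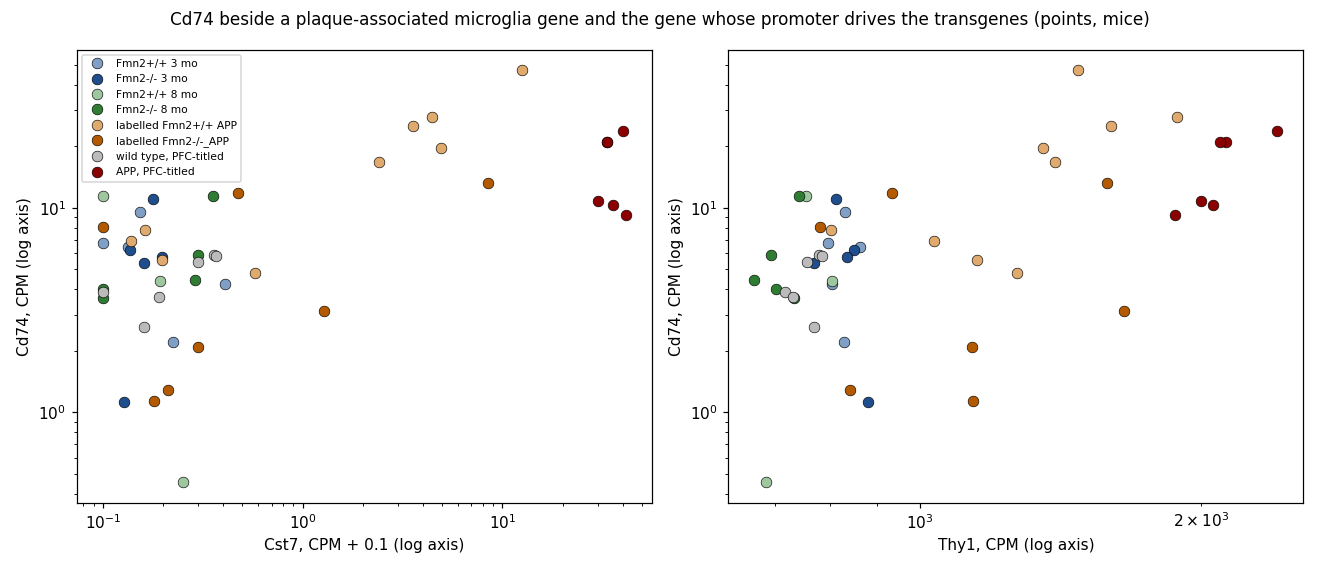
Cd74 (CPM, log axis) in every mouse against Cst7 (CPM + 0.1, log axis, left) and Thy1 (CPM, log axis, right), coloured by group. The 6 PFC-titled APP mice held 30.1 to 41.3 CPM of Cst7 and 9.24 to 23.8 CPM of Cd74, and the cross mice spread from 0 to 12.4 CPM of Cst7 and from 1.14 to 47.3 CPM of Cd74.

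Beside the members, 3 list genes were called between the labelled groups of the cross. H2-T22, a nonclassical class I gene with close copies, was higher in the mice labelled Fmn2-/-_APP (log2 0.86, adjusted p = 0.00815), as was C1ql2, a marker of dentate granule cells (0.59, adjusted p = 0.0426), while Clec7a was lower (-2.68, adjusted p = 0.0267). All 9 tested plaque-associated genes, all 6 border macrophage markers and all 4 meningeal markers were lower there, with medians of -0.49, -0.40 and -0.67. All 4 tested choroid plexus markers were lower too (median -3.00), each with an unadjusted p under 0.05 and none called, and they summed to 45.97 to 117 CPM in these mice against 40.02 to 9164 CPM, with a median of 82.2 CPM, in those labelled Fmn2+/+ APP. General microglia genes were lower in 9 of 10 cases (median -0.13), 4 of them with an unadjusted p under 0.05, whereas all 5 granule cell markers (median 0.29) and all 4 blood markers (0.59) were higher. The sums of border macrophage markers were 8.34 to 32.9 CPM in these mice and 7.63 to 28.9 CPM in those labelled Fmn2+/+ APP, and those of meningeal markers 51.6 to 301 and 121 to 391 CPM. Their part in the class II values was not tested.

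The cross was also set against the Fmn2 experiment at 3 months, taking the mean of both groups in each, which a swap of genotype labels would not change. Experiment and amyloid cannot be told apart in this comparison, and of 17599 genes tested, 16.5% were called and 9.25% were called higher. Psmb8 (log2 0.65, SE 0.13, adjusted p = 0.000215) and Psmb9 (0.79, SE 0.19, adjusted p = 0.00107) were called higher by edgeR, and DESeq2 also called 2 of 10. Psmb8 had a median of 2.79 CPM with a range of 1.85 to 3.63 in the mice labelled Fmn2+/+ APP, 1.79 to 3.61 CPM in those labelled Fmn2-/-_APP, 1.32 to 1.85 CPM in Fmn2+/+ and a median of 1.77 and a highest level of 2.13 CPM in Fmn2-/- mice. The ranges overlapped, as did those of Psmb9. H2-K1 (0.34, adjusted p = 0.0301) and Tapbp (0.20, adjusted p = 0.0207) passed on p but not on fold, a rule that 49.4% of all genes met. H2-Aa was at 0.97 (adjusted p = 0.0648) and was called without any 1 of 5 mice, Fmn2-/- replicate 2 (adjusted p = 0.0308), labelled Fmn2-/-_APP replicates 3, 5 and 7 (0.0405, 0.0413 and 0.0381) and labelled Fmn2+/+ APP replicate 6 (0.0447). Cd74 and H2-Ab1 were at 0.80 and 0.81 (adjusted p = 0.132 and 0.0945), H2-D1 and Tap1 at 0.08 and 0.20, and B2m at -0.20 (adjusted p = 0.0913). The constitutive subunit Psmb5 was itself called higher (0.94). Without the 3 cross mice of low Thy1, Psmb8 (0.70) and Psmb9 (0.84) were again called.

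In the same comparison 3 of 9 other class II genes (H2-Ob at 1.31, H2-DMb1 at 0.82 and Ctss at 0.53), 3 of 10 transcription factors (Nlrc5 at 0.98, Ciita at 0.80 and Irf8 at 0.52) and 7 of 14 interferon targets were called higher, with Bst2 the first of these at 1.27. Of the other class I genes 4 of 14 were called higher, H2-M3 (0.96), H2-T23 (0.86), Cd1d1 (0.78) and H2-T22 (0.59), and H2-Bl was called lower (-1.25). H2-Ob, Nlrc5, Ciita, Cd1d1 and H2-Bl had mean levels under 1 CPM here and are named after their values were seen. Beside them 5 of 10 microglia genes, 7 of 10 plaque-associated genes and 4 of 6 border macrophage markers were called higher. Of the plaque-associated genes 1 was called lower. Their summed level had a median of 229 CPM in the mice labelled Fmn2+/+ APP and 168 CPM in those labelled Fmn2-/-_APP. The medians were 256 CPM in Fmn2+/+ and 261 CPM in Fmn2-/- mice of 3 months. C1ql2 (1.03) and the meningeal marker Dcn (1.46) were also called higher, and 4 of 5 cortex markers were called lower. The part of these markers in the values above was not tested.

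Loss of Fmn2 without amyloid was compared at 3 and 8 months, where a log2 fold change of 0.25 was asked for a call. At 3 months 0 of 10 genes were called by edgeR or DESeq2, and 0 had an unadjusted p under 0.05, with 0.0301% of 16630 genes called. Fold changes ran from -0.13 (B2m, SE 0.11) to 0.28 (H2-Aa, SE 0.50) with a median of 0.06. B2m stood at 104.6, 111.0, 101.8, 109.7 and 119.5 CPM in Fmn2+/+ mice and at 118, 124, 91.1, 88.4 and 80.6 CPM in Fmn2-/- mice. H2-K1 stood at 16.7, 18.5, 13.3, 19.95 and 20.9 CPM against 20.2, 23.6, 18.1, 14.5 and 17.6 CPM, with wide overlap. Standard errors near 0.5 for the class II genes mean that a change of that size could not have been detected at this spread. All 5 Fmn2+/+ mice were run on lane 5, but only replicate 1 of the Fmn2-/- mice was. The other Fmn2-/- mice were on lane 6, so a shift between these lanes could hide or mimic a genotype effect. On lane 5 alone, B2m was higher in that 1 Fmn2-/- mouse by 0.11 in mean log2 CPM. There 3 of the 10 genes were lower, with a median difference of 0.15.

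At 8 months 0 of 10 genes were called by edgeR or DESeq2 and 1, B2m, had an unadjusted p under 0.05, with 1.13% of 14665 genes called. B2m stood at 137, 88.8 and 144 CPM in Fmn2+/+ mice and at 91.3, 101.6, 97.2, 101.8 and 92.5 CPM in Fmn2-/- mice (log2 -0.35, SE 0.12, adjusted p = 0.134). The difference came from Fmn2+/+ replicates 1 and 3, while replicate 2 was below every Fmn2-/- mouse. H2-K1 showed the same split, with 32.9, 16.1 and 40.8 CPM against 20.4, 23.9, 28.2, 29.7 and 17.7 CPM (log2 -0.34, SE 0.23, adjusted p = 0.397). Without Fmn2+/+ replicate 2, the mouse with the lowest total of all, B2m (-0.52, adjusted p = 0.00109), H2-K1 (-0.59, adjusted p = 0.0268) and H2-D1 (-0.41, adjusted p = 0.0337) were called lower. The number of called genes over all genes went from 166 to 3087 in the same fit, so the added calls were not particular to the 10 genes. Cd74 ranged from 0.455 to 11.4 CPM in Fmn2+/+ and from 3.63 to 11.4 CPM in Fmn2-/- mice, and the class II fold changes were 0.06 to 0.15. The granule cell marker C1ql2 was the only list gene called at this age (-0.65, adjusted p = 0.0434). Replicate 1 of Fmn2+/+ was the only mouse of this age on lane 6. On lane 7 alone, with 2 and 5 mice, 5 of the 10 genes were lower in Fmn2-/- mice.

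The difference between the genotype effects at the 2 ages was tested as an interaction over the 18 mice. The genotypes were spread unevenly over lanes at both ages, as given above, and this also enters the interaction. It was called for 0 of 10 genes, none had an unadjusted p under 0.05, and 3.73% of 17046 genes were called. The values ran from -0.42 (H2-K1, SE 0.29, adjusted p = 0.413) to 0.11 (Cd74, SE 0.82). From the lists 4 genes were called. The number of called genes over all genes ran from 8 to 2791 when 1 mouse was left out, and these 4 calls were not followed through those fits. Psmb10 (-0.49, adjusted p = 0.0377) and the constitutive subunit Psmb6 (-0.45, adjusted p = 0.0123) had a lower Fmn2-/- to Fmn2+/+ ratio at 8 than at 3 months, and so had the blood marker Hba-a1, a near-identical copy of Hba-a2 (-1.63, adjusted p = 0.0357) and the granule cell marker C1ql2 (-0.91, adjusted p = 0.0225).

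Finally, the genes that varied most like H2-K1, B2m and Cd74 from mouse to mouse were read off log2 CPM centred on each group's mean, over 46 mice and 14754 genes. These correlations describe mice that share experiment, lane and dissection, and have no p. H2-K1 was closest to H2-D1 (r = 0.911), and its 5 closest genes also held Ifitm3 (0.876), Lyz2 (0.813) and Tln1 (0.809). B2m was closest to H2-D1 (0.768), H2-K1 (0.765), Ctsz (0.764), Lyz2 (0.759) and Srgn (0.758). Cd74 was closest to H2-Ab1 (0.958), H2-Aa (0.938) and H2-Eb1 (0.917), then Lyz2 (0.868), which encodes a lysozyme of macrophages, and Cytl1 (0.844). Within the set Tap1 had r between -0.15 and -0.06 to the class II genes, 0.23 to H2-K1, 0.36 to Psmb8 and 0.46 to Tapbp. The r of Cd74 was 0.761 with Mrc1, a border macrophage marker, 0.553 with Cst7, 0.549 with the endothelial marker Cldn5, 0.269 with the interferon target Ifit3, 0.0999 with the microglial receptor Cx3cr1 and -0.0424 with Ttr. With Mrc1 and Cx3cr1, H2-K1 (0.758 and 0.0279) and H2-D1 (0.676 and -0.0112) had similar values, whereas Tap1 had 0.0666 and -0.0055. Each of these markers is a single gene of its list.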

How the data were processed

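RNA was isolated with TRIZOL from whole tissue, and libraries were made with the Illumina TruSeq kit, according to the study. The authors aligned the reads to mm10 with STAR, counted them per gene with HTSeq and deposited whole-number counts per gene for each run, which were used as given. A total of 48 runs from 46 mice were analysed, and the 2 runs (lanes 4 and 7) of 2 cross mice were summed. Genes were filtered with filterByExpr, scaled with TMM and tested with the quasi-likelihood test of edgeR (4.0.16, R 4.3.3) in each comparison, with Benjamini-Hochberg adjustment over all genes tested. A call needed an adjusted p under 0.05 and a log2 change, in either direction, of 0.25 or more (Fmn2 experiment) or 0.5 or more (amyloid comparisons). CPM were scaled by TMM over all 46 mice, and RPKM are CPM per kilobase of merged exons. Counting with HTSeq leaves out reads that fit several genes, which lowers counts of near-identical H2 genes. Replicates are separate mice by their labels. Ratios were compared with an exact permutation test (scipy 1.17.1). Promoter windows and motifs came from RefSeq (GRCm38.p6); 8 of 10 members had one. The fit was tested on simulated data. Members, lists and tests were chosen with earlier results of these data known. From each list the 4 called genes of largest fold with a mean of at least 1 CPM were named, with the exceptions stated. Alternatives were DESeq2 (1.42.0), other scaling and filters, a gene length and GC correction, lane and replicate terms, and leaving out each mouse in turn. Deviations of same-numbered mice correlated at -0.288 to 0.272 in the cross and at -0.090 to 0.208 (3 months), -0.051 to -0.026 (8 months) and -0.17 to 0.19 (PFC-titled mice), and at least 1 pair in each was below 0, so numbers were not taken as pairs. Values of some single genes are not reported here.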

Additional observations from a re-analysis of the deposited data

Results flagged for a closer look

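Of 70 sets of 1 gene in 1 group with 4 to 10 mice, 6 held a mouse whose distance to the others passed Dixon's 95% critical value, where chance flags about 1 in 20. Tap1 was at 1.89 CPM in Fmn2+/+ replicate 2 of 3 months, against 2.56 to 2.70 CPM in the others. Psmb9 was at 3.21 CPM in labelled Fmn2+/+ APP replicate 1 (others 1.39 to 2.303), at 5.07 CPM in PFC-titled APP replicate 1 (others 2.04 to 3.02) and at 1.03 CPM in PFC-titled wild type replicate 3 (others 1.47 to 1.65). H2-Aa was at 20.5 CPM in labelled Fmn2+/+ APP replicate 8 (others 2.27 to 9.74), the mouse with the highest Cd74 and H2-Ab1. H2-Ab1 was at 3.58 CPM in Fmn2-/- replicate 4 of 8 months (others 1.71 to 1.92), where Cd74 and H2-Aa were also the highest of the group. Leaving out any of these mice ended no call of Psmb9 in the PFC-titled comparison.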

How the results depend on the processing

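The count of the 10 genes called was 9 in the PFC-titled mice (10 with no minimum fold) and did not change at 3 months (0), in the cross (0) and for the interaction (0) under every alternative that kept all mice. It went from 0 to 1 at 8 months without the low-count filter (B2m) and from 2 to 4 in the cross against the Fmn2 experiment with no minimum fold. Leaving out 1 mouse gave 8 to 9 in the PFC-titled mice, 0 to 3 at 8 months and 2 to 3 in the cross against the Fmn2 experiment. Counts over all genes moved more, and the cause was not tested. At 3 months 5 genes became 96 with DESeq2, 3 with RLE scaling, 14 without the filter, 3 with the length and GC correction and 3 with lane, and 3 to 49 without 1 mouse. At 8 months 166 became 672 with DESeq2, 1124 without the filter, 33 with the correction, 3 with lane and 5 with the near-identical mice summed, and 4 to 3087 without 1 mouse. In the cross 129 became 261 with no minimum fold, 356 with DESeq2 and 73 to 171 without 1 mouse. The PFC-titled 392 became 637 and the 2905 of the cross against the Fmn2 experiment 8701 with no minimum fold. For the interaction 635 became 1398 with DESeq2, 399 without the filter, 26 with the correction, 227 with summed mice and 8 to 2791 without 1 mouse. With the replicate block, which the numbers do not justify, 2, 4, 111 and 383 genes were called at 3 months, at 8 months, in the cross and in the PFC-titled mice, and the counts of the 10 genes stayed at 0, 0, 0 and 9. The mean correlation of same-numbered mice was 0.0522, -0.0357, 0.0693 and 0.0050 in these comparisons. Log2 fold changes of uncalled genes changed sign under some settings. At 3 months the values were H2-K1 -0.023, Cd74 -0.44, H2-Aa -0.19 and H2-Ab1 -0.46 with the block, H2-D1 0.0057 with no filter, B2m 0.11, Tap1 0.21, Psmb9 -0.12, Cd74 -0.094 and H2-Ab1 -0.22 with lane, Cd74 -0.10 and H2-Ab1 -0.040 with the correction. At 8 months the values were Tap1 0.071, Cd74 -0.069, H2-Aa -0.38 and H2-Ab1 -0.19 with lane, Cd74 -0.018, H2-Aa -0.033 and H2-Ab1 -0.040 with the block, H2-Aa -0.039 with DESeq2, H2-Aa -0.0051 with the correction. In the cross against the Fmn2 experiment the values were H2-D1 -0.025 with the correction. For the interaction the values were H2-D1 0.066, Tap1 0.11, Psmb8 0.024 and H2-Ab1 0.34 with the correction, H2-Ab1 0.0013 with DESeq2, H2-Ab1 0.017 with RLE, H2-Ab1 0.055 with summed mice. Without 1 mouse at a time, log2 fold changes of uncalled genes ranged across 0. At 3 months the ranges were H2-K1 -0.030 to 0.15, H2-D1 -0.077 to 0.037, Cd74 -0.33 to 0.29, H2-Aa -0.16 to 0.56 and H2-Ab1 -0.26 to 0.31. At 8 months the ranges were Tap1 -0.25 to 0.071, Psmb8 -0.040 to 0.41, Psmb9 -0.30 to 0.030, Cd74 -0.26 to 0.89, H2-Aa -0.38 to 1.01 and H2-Ab1 -0.21 to 0.71. For the interaction the ranges were H2-D1 -0.41 to 0.0090, Tap1 -0.15 to 0.15, Psmb8 -0.30 to 0.15, Cd74 -0.30 to 0.94, H2-Aa -0.66 to 0.80 and H2-Ab1 -0.34 to 0.72. Log2 ratio differences did so for Psmb8/Psmb5 8 months -0.049 to 0.61, Psmb9/Psmb6 3 months -0.072 to 0.21, Psmb9/Psmb6 8 months -0.026 to 0.40, Psmb10/Psmb7 cross -0.065 to 0.11. The alternative without mice of low Thy1 was chosen after seeing the data.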
